A study of Mus musculus with 11 samples.

Results

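The 8 genes described here are the ligands, receptors and co-receptors of transforming growth factor beta (TGF-beta) and 1 gene named for its induction by it: Tgfb1, Tgfb2, Tgfb3, Tgfbr1, Tgfbr2, Tgfbr3, Eng and Tgfbi. They were taken by symbol from the 23507 gene rows of a single-cell RNA sequencing table, and each symbol had 1 row. The cells were the stromal vascular fraction, that is the non-adipocyte cells, of perigonadal white adipose tissue (pgWAT) of adult mice. All mice carried the PdgfrbGFP transgene, in which Pdgfrb regulatory sequence drives green fluorescent protein, on a C57BL6/J background, and the labels name no treatment. Cells were sorted by this reporter, by CD31 (an endothelial surface protein) and by DPP4 (a surface protein of some stem cells) into 11 plates from 7 mouse ids, with male ids 1, 4 and 8 and female ids 2, 3, 5 and 6/7, the last of which stands for a pair of animals. The sorts set which cells were present, and the CD45-negative gate of the study came before them. Of 3261 cells, 2250 were adipose stem cell-like (ASC-like), 559 endothelial cell-like (EC-like), 137 macrophage-like and 101 mural-like, the last made of 60 pericyte-like and 41 vascular smooth muscle cell-like (VSMC-like) cells. The comparisons asked where each ligand and receptor is expressed, how the ASC subtypes differ and whether the sexes differ.

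TGF-beta ligands are secreted as latent complexes, bound through latent TGF-beta binding proteins to the extracellular matrix or through membrane carriers to cells, and have to be released before they act. The active ligand binds the type II receptor, encoded by Tgfbr2, which recruits and phosphorylates the type I receptor, encoded by Tgfbr1 (or, in endothelium, by Acvrl1), and the complex then phosphorylates SMAD proteins that act on target genes. Betaglycan, encoded by Tgfbr3, presents ligand to the type II receptor and is best known for presenting TGF-beta 2, while endoglin, encoded by Eng, is a co-receptor typical of endothelium. Tgfbi encodes a secreted matrix protein first described as a TGF-beta-induced gene. In adipose tissue the pathway is known for restraining adipocyte differentiation of progenitors and for fibrosis.

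On GRCm38, in the GENCODE vM21 annotation, Tgfb1 (ENSMUSG00000002603) lies at chr7:25687002-25705077 on the plus strand, Tgfb2 (ENSMUSG00000039239) at chr1:186622792-186705989 on the minus strand and Tgfb3 (ENSMUSG00000021253) at chr12:86056745-86079041 on the minus strand. Tgfbr1 (ENSMUSG00000007613) lies at chr4:47353222-47414931 on the plus strand, and Tgfbr2 (ENSMUSG00000032440) at chr9:116084293-116175360 on the minus strand. Tgfbr3 (ENSMUSG00000029287) lies at chr5:107106570-107289629 on the minus strand and Eng (ENSMUSG00000026814) at chr2:32646595-32682669 on the plus strand. Tgfbi (ENSMUSG00000035493) lies at chr13:56609523-56639562 on the plus strand. The values are counts over whole genes, so nothing here separates their exons, introns or untranslated regions.

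Of the 8 genes, 6 had a promoter in the RefSeq table of GRCm38.p6, and Tgfb3 and Tgfbr3 had no entry. The sequence upstream of the annotated start is shown for 3 of these 6, which were high in different classes below, Tgfb2 (ASC-like and VSMC-like cells, chr1:186705990-186706239, minus strand), Tgfbi (macrophage-like and ASC-like cells, chr13:56609336-56609522, plus strand) and Eng (EC-like cells, chr2:32646345-32646594, plus strand), each written 5′ to 3′ on the strand of the gene. Capitals mark matches, on either strand, to CAGAC (a SMAD-binding motif, GTCTG on the other strand), to GGGCGG (a GC box, CCGCCC on the other strand) and to GGAAG (the core of ETS family sites, CTTCC on the other strand).
Tgfb2: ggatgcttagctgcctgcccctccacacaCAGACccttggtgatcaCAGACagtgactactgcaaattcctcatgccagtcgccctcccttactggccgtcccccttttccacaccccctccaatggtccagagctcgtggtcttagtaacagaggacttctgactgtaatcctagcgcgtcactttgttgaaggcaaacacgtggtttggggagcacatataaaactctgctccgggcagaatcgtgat
Tgfbi: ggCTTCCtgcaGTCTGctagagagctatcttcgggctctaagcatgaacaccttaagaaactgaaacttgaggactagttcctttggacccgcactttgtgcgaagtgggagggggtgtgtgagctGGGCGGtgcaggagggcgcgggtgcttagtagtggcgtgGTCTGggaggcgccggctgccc
Eng: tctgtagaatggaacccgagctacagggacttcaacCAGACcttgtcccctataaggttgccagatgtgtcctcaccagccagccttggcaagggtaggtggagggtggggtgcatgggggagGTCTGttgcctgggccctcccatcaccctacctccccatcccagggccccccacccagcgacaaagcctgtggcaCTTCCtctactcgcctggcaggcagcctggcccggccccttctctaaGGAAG
Each of the 3 windows holds 2 matches to the SMAD-binding motif. At least 1 match is found in 42.2% of 32817 promoter windows of 250 bases and in 34.2% of windows of 187 bases. The Tgfbi window has 1 GC box (22.2% of windows of 187 bases have one) and 1 ETS core (52.4%). The Eng window has 2 ETS cores (64.1% of windows of 250 bases have one) and no GC box (32.7%), and the Tgfb2 window has neither. These matches describe the letters only.

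Reads per cell ran from 149931 to 3548334 with a median of 629323. There are no molecular identifiers, so intervals below cover counting error only. A pair of ribosomal RNA rows took 29.6% to 68.6% of the reads of a sum, and levels are therefore given as CPM (counts scaled to a common total of reads, with TMM factors) unless stated otherwise. Cells of 1 mouse are not replicates, so counts were summed per mouse and class, which gave 7 ASC-like, 5 EC-like, 2 mural-like (mouse 1, 82 cells, and mouse 2, 13 cells) and 2 macrophage-like sums (mouse 1, 76 cells, and mouse 5, 61 cells). The classes carried their own markers, with 0.123% to 1.33% of the ASC marker level and 0.361% to 0.635% of the macrophage marker level in the other classes. The mural-like sums stood apart. Their 4 EC markers summed to 644.9 CPM in mouse 1 and 3248 CPM in mouse 2, against 2717 to 6330 CPM in EC-like sums, and 12 of the 13 mural-like cells of mouse 2 and 18 of the 82 of mouse 1 were rich in markers of another class. Macrophage-like cells were present although the sort excluded CD45-positive cells. Of the 76 of mouse 1, 73 were on a CD31-positive plate, and all 61 of mouse 5 were on a PDGFRB-positive plate. The macrophage-like sums thus differ in sort, plate and sex, which cannot be told apart. Whether the wells of macrophage-like cells, or of mural-like cells rich in other markers, held more than 1 cell was not tested. The macrophage-like and mural-like values below are those of the wells. A gene is said below to be called, or to rise or fall, where the quasi-likelihood test of edgeR gave a Benjamini-Hochberg adjusted p-value under 0.05 over all genes tested and a fold above 2.6.

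Most of the 8 genes differed between cell classes. Between EC-like and ASC-like cells 6 of 8 were called, 2 higher and 4 lower in EC-like cells, where 21.8% of the 12837 genes tested were called, and the median log2 difference was -1.30 for the 8 genes and -0.19 for all genes. Between macrophage-like and ASC-like cells 3 of 8 were called (15.1% of all genes), and between mural-like and ASC-like cells 3 of 8 (8.16%). Between macrophage-like and EC-like cells 3 of 8 were called (13.9% of all genes), between macrophage-like and mural-like cells 4 of 8 (10%), and between mural-like and EC-like cells 0 of 8 (2.32%). In that last comparison 2 of the 8, Tgfb3 and Eng, had an unadjusted p under 0.05 in edgeR, and 1 was called by the likelihood ratio test of edgeR and 2 by DESeq2. The macrophage-like and mural-like sums shared only mouse 1, so that comparison also rests on differences between mice. Genes were tested where 2 sums of any class exceeded 600 reads. No EC-like sum did so for Tgfb2, Tgfb3 or Tgfbi, with at most 195, 176 and 261 reads. Nor did a macrophage-like sum for Tgfb2 (3 and 1 reads) or Tgfbr3 (12 and 8), or a mural-like sum for Tgfbi (168 and 0). These members entered the test only through classes where they were high, and their calls as lower elsewhere depend on that.

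**Figure D1:**
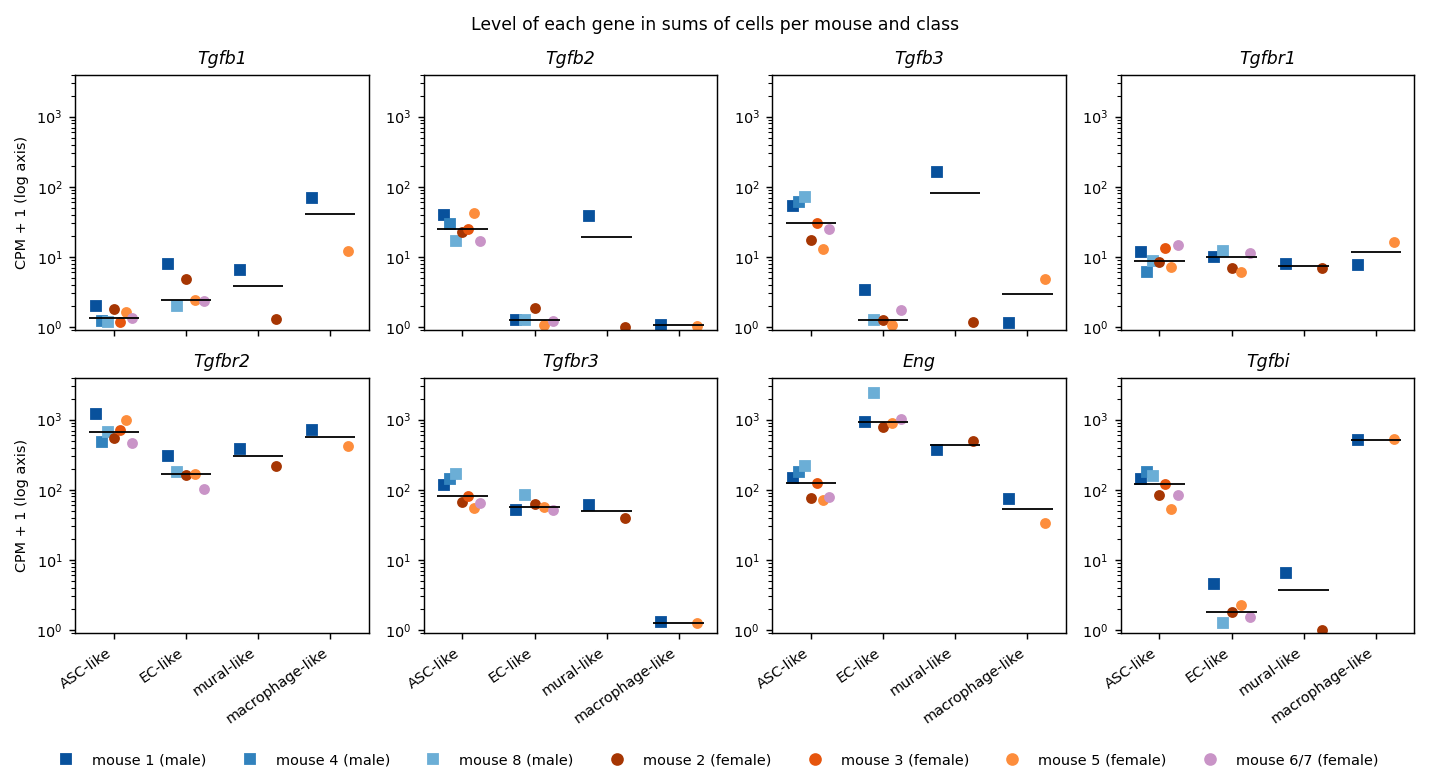
Level of each gene (CPM plus 1, log axis) in every sum of cells, by class, with 1 point per mouse and the male ids as squares. Eng is highest in all 5 EC-like sums (789 to 2375 CPM), Tgfbi in both macrophage-like sums (508 and 527 CPM), and Tgfb3 lies at 162 CPM in the mural-like sum of mouse 1 and at 0.166 CPM in that of mouse 2.

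Tgfb1, the ligand known for its expression by leukocytes, was the scarcest ligand in ASC-like cells. Its level over the 7 mice was 0.152 CPM at the lowest, 0.325 at the median and 0.983 at the highest. In EC-like cells it was 6.98, 3.84, 1.38, 1.36 and 0.957 CPM in mice 1, 2, 5, 6/7 and 8. In macrophage-like cells it reached 67.4 CPM in mouse 1 and 11.2 CPM in mouse 5. Both macrophage-like values thus lie above all EC-like and ASC-like values, while the EC-like value of mouse 8 lies within the ASC-like range. Tgfb1 was higher in macrophage-like than in ASC-like cells by 4.81 ± 0.89 on the log2 scale (SE, adjusted p = 0.00646, edgeR), and the levels within mice 1 and 5 differed 68.5- and 17.6-fold, but the call was lost without either of these mice. It was higher in EC-like than in ASC-like cells by 2.09 ± 0.63 (adjusted p = 0.0354), in 5 of 5 mice and by 2.18- to 7.10-fold, but this call was lost without mouse 1, 5, 6/7 or 8 and when genes with fewer reads were tested too. Against EC-like cells the macrophage-like difference of 2.72 ± 0.88 had an adjusted p of 0.0737, although both macrophage-like sums were 8.10- and 9.66-fold above the EC-like sum of their own mouse. This difference was called in 6 of 18 alternatives, among them the likelihood ratio test of edgeR (adjusted p = 0.0147) and DESeq2 (adjusted p = 0.00382). Against mural-like cells (5.43 CPM in mouse 1, 0.290 in mouse 2) it was 4.21 ± 1.09 (adjusted p = 0.0412), a call kept in 9 of 18 alternatives. The reads came from few cells, since 9 of 2250 ASC-like cells, 5 of 559 EC-like cells and 5 of 137 macrophage-like cells were enough to hold the larger part of them. The mural-like reads of mouse 1 were 133 in VSMC-like and 34 in pericyte-like cells, and 98.5% of the VSMC-like reads stood in 1 cell.

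Tgfb2 and Tgfb3 were lower in EC-like than in ASC-like cells, and Tgfb2 was also lower in macrophage-like cells. Tgfb2 in ASC-like cells ran from 15.5 CPM (mouse 8) over a median of 24.2 to 41.6 (mouse 5). In EC-like cells it lay between 0.0432 CPM (mouse 5, 1 read) and 0.842 (mouse 2), so the classes did not overlap, as for 2807 of the 12837 genes tested. The difference was -6.25 ± 1.48 on the log2 scale (adjusted p = 0.0118, edgeR), with a level 25.6- to 962-fold lower in the EC-like cells of each mouse, and the call was lost without mouse 5. In macrophage-like cells Tgfb2 had 3 reads in mouse 1 (0.0694 CPM, 95% exact Poisson interval 0.0143 to 0.203) and 1 read in mouse 5 (0.0287 CPM, 0.000727 to 0.160). Against ASC-like cells this was a fitted difference of -9.70 ± 2.70 (adjusted p = 0.0388), whose size rests on those 4 reads. The call was lost in 6 of 19 alternatives, among them the lower filters and the fits without mouse 1, 5, 6/7 or 8.

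Tgfb3 in ASC-like cells ran from 11.9 CPM (mouse 5) over a median of 29.4 to 71.0 (mouse 8). The EC-like sums held 0.0432 to 2.40 CPM, which again did not overlap. EC-like cells were lower by 5.88 ± 1.52 on the log2 scale, written as -5.88 (adjusted p = 0.0181, edgeR), and 21.6- to 276-fold lower within a mouse. That call was lost without mouse 6/7 or without mouse 8. Macrophage-like cells had 0.139 CPM in mouse 1 and 3.82 CPM in mouse 5, and 51.8% of their reads stood in 1 cell. Their difference from ASC-like cells, -3.38 ± 2.36, was not called (adjusted p = 0.417).

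The mural-like values of both ligands split by mouse. Tgfb2 was 36.8 CPM in mouse 1 and had no read in mouse 2, where the 95% exact Poisson interval reaches 0.153 CPM. Tgfb3 was 162 CPM in mouse 1, above every ASC-like sum, and 0.166 CPM (4 reads) in mouse 2. With all mice, neither ligand was called between mural-like cells and another class by the quasi-likelihood test with mouse as a block, but other tests did call them. Against EC-like cells Tgfb3 was called by the likelihood ratio test of edgeR (adjusted p = 0.0447), by DESeq2 (adjusted p = 0.00489) and by edgeR without the block (adjusted p = 0.0119), and Tgfb2 by DESeq2 (adjusted p = 0.0321) and without the block (adjusted p = 0.00796). Between macrophage-like and mural-like cells Tgfb2 was called by the likelihood ratio test (adjusted p = 0.00850), by DESeq2 (adjusted p = 0.000718) and by edgeR without the block (adjusted p = 0.0137). Without mouse 2, Tgfb2 was called higher in mural-like than in EC-like cells (log2 difference 7.02, adjusted p = 0.0268, edgeR) and lower in macrophage-like than in mural-like cells (-9.24, adjusted p = 0.00955, edgeR). Without mouse 1 both differences changed sign and neither was called (-9.63, adjusted p = 0.309, and 6.22, adjusted p = 0.649, edgeR). These fitted sizes rest on a mural-like sum with no read of Tgfb2 and are no bound on the difference. The mural-like cell types of each mouse are given below.

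The signalling receptors had reads in every class. Tgfbr1 had low counts in all classes, at 5.05 to 13.5 CPM in ASC-like, 5.01 to 11.1 in EC-like, 6.62 and 15.1 in macrophage-like and 6.95 and 5.97 in mural-like cells. These ranges overlap, and Tgfbr1 was called in 0 of 6 class comparisons. EC-like minus ASC-like was -0.14 ± 0.44 (adjusted p = 0.852). Tgfbr2 was abundant in every class, with 462 to 1215 CPM (median 655) in ASC-like cells. The EC-like values of 307, 163, 165, 101 and 178 CPM in mice 1, 2, 5, 6/7 and 8 all lay below that range. EC-like cells differed by -2.08 ± 0.20 (adjusted p = 8.61e-05, 4.24-fold), were 3.35- to 6.07-fold lower within a mouse, and the call stood in all 19 alternatives run. Macrophage-like cells had 717 and 425 CPM, of which the second lies just below the ASC-like range, and mural-like cells 385 and 220 CPM. By median level the order was ASC-like, macrophage-like, mural-like, EC-like. The neighbours in that order were not called apart, with adjusted p of 0.0630 for macrophage-like against ASC-like, 0.210 for macrophage-like against mural-like and 0.500 for mural-like against EC-like cells. Macrophage-like cells were above EC-like cells by 1.20 ± 0.27 (adjusted p = 0.0163), a fold of 2.30 that stays under the 2.6 required. Mural-like cells fell below ASC-like cells by 1.62 on the log2 scale (SE 0.29, adjusted p = 0.0110), and this call was kept in 13 of 19 alternatives. It was lost, among others, without mouse 1, without mouse 2 and without the cells rich in other markers (-2.08, adjusted p = 0.0683).

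Tgfbr3, betaglycan, was nearly absent from macrophage-like cells. It had 54.0 to 167 CPM (median 79.7) in ASC-like cells. The EC-like values were 49.6, 62.1, 55.6, 49.9 and 81.9 CPM in mice 1, 2, 5, 6/7 and 8, and the mural-like values 59.9 and 38.7. Macrophage-like cells held 0.278 CPM in mouse 1 (12 reads) and 0.230 in mouse 5 (8 reads). The macrophage-like sums thus lie far below all others, whereas the EC-like and ASC-like ranges overlap. Macrophage-like cells differed by -8.33 ± 0.54 from ASC-like (adjusted p = 7.86e-05), by -7.81 ± 0.53 from EC-like (adjusted p = 0.000162) and by -7.53 ± 0.54 from mural-like cells (adjusted p = 0.000487), and each of these calls was kept in 19 of 19 alternatives. The difference between EC-like and ASC-like cells was -0.52 ± 0.25 (adjusted p = 0.163).

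Eng, endoglin, was the leading gene of the set in EC-like cells. It was 940 CPM in mouse 1, 789 in mouse 2, 902 in mouse 5, 1032 in mouse 6/7 and 2375 in mouse 8. ASC-like cells had 70.1 to 220 CPM with a median of 124.5. The EC-like values were all above the ASC-like ones, 6.38- to 13.5-fold within a mouse, and the difference of 3.39 ± 0.28 (adjusted p = 4.10e-05, 10.5-fold) was called in 19 of 19 alternatives. In mice 5 and 8 both classes came from 1 plate, so for them the sort plate does not differ between the classes. Macrophage-like cells had 71.7 and 32.1 CPM, below EC-like cells by 4.28 ± 0.45 (-4.28, adjusted p = 0.000481, 19 of 19 alternatives) and not called apart from ASC-like cells (-0.89 ± 0.37, adjusted p = 0.148). The mural-like sums lay between the classes at 372 and 488 CPM. They were above ASC-like cells by 2.16 ± 0.36 (adjusted p = 0.00758), a call lost without mouse 2 (1.55, adjusted p = 0.147). They were also above macrophage-like cells (macrophage-like minus mural-like -3.05 ± 0.47, adjusted p = 0.00417), a call lost without mouse 5 and with classes named cell by cell (-1.67, adjusted p = 0.0640). Without the cells rich in other markers, only the mural-like sum of mouse 1 is left, and its EC markers stood at 143.3 CPM in place of 644.9. The Eng difference from ASC-like cells was then 0.95 and that from EC-like cells -2.49. In mouse 1, 27 of 44 pericyte-like and 37 of 38 VSMC-like cells were kept, so the makeup of the sum changed as well. The parts of EC RNA and of makeup in the mural-like Eng level were not tested.

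Tgfbi was a gene of macrophage-like and ASC-like cells. Macrophage-like cells had 508 CPM in mouse 1 and 527 in mouse 5, and ASC-like cells 52.2 to 176 CPM with a median of 119. EC-like cells had 0.261 to 3.56 CPM, and mural-like cells 5.46 CPM in mouse 1 and no read in mouse 2. The macrophage-like, ASC-like and EC-like ranges did not overlap. Such ranges were common among the 12837 genes tested. They were found for 5152 genes between macrophage-like and ASC-like, 3792 between macrophage-like and EC-like and 2807 between EC-like and ASC-like sums. EC-like cells were below ASC-like cells by 6.73 (-6.73 ± 0.99, adjusted p = 0.000868, 106-fold), in 19 of 19 alternatives. Macrophage-like cells were above EC-like cells by 8.34 ± 1.28 (adjusted p = 0.00265) and above mural-like cells by 8.26 ± 1.69 (adjusted p = 0.0154). Both calls were lost without mouse 5, the former at 7.27 with an adjusted p of 0.0651, and the latter also with classes named cell by cell (8.49, adjusted p = 0.0535). The difference between macrophage-like and ASC-like cells, 3.54-fold in mouse 1 and 10.1-fold in mouse 5, was not called (1.61 ± 1.25, adjusted p = 0.472). Mural-like cells were below ASC-like cells (-6.65 ± 1.55, adjusted p = 0.0302), a call lost without mouse 2, without mouse 6/7 and without the cells rich in other markers.

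Divided by the length of the exons, which makes levels of different genes comparable, Tgfbr2 led in ASC-like cells with a median of 80.0 CPM per kb. Tgfbi (31.7 CPM per kb) and Eng (30.8) followed, then Tgfbr3 (12.2), Tgfb3 (8.68), Tgfb2 (4.18), Tgfbr1 (1.17) and Tgfb1 (0.0645). In EC-like cells Eng stood at 232 CPM per kb, Tgfbr2 at 20.2, Tgfbr3 at 8.50 and Tgfbr1 at 1.37. In macrophage-like cells Tgfbi stood at 137 CPM per kb, Tgfbr2 at 69.8, Eng at 12.8 and Tgfb1 at 7.79. Tgfbr2 was thus well above Tgfbr1 per kb in ASC-like, EC-like and macrophage-like cells. Acvrl1, the other type I receptor named above, was not divided by length. Its median was 101 CPM in EC-like, 69.7 CPM in ASC-like and 21.35 CPM in macrophage-like cells.

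Within the mural-like cells of mouse 1, Tgfb2 and Tgfb3 belonged to the VSMC-like cells and Eng to the pericyte-like cells. This is 1 animal, with 44 pericyte-like and 38 VSMC-like cells, so the values below are CPM of the reads outside the ribosomal rows, with exact 95% Poisson intervals and without a test. Tgfb3 was 634 (616 to 652) in VSMC-like and 19.3 (16.4 to 22.6) in pericyte-like cells, against 96.9 in ASC-like and 4.90 in EC-like cells of the same mouse. Tgfb2 was 128 (120 to 136) in VSMC-like and 19.7 (16.8 to 22.9) in pericyte-like cells, against 72.3 in ASC-like cells. The VSMC-like cells therefore held the highest level of both ligands in this mouse. Eng went the other way, at 1288 (1263 to 1312) in pericyte-like and 109 (102 to 117) in VSMC-like cells, and 51.9% of the VSMC-like reads stood in 1 cell. Tgfbr2 was 1053 in pericyte-like and 417 in VSMC-like cells. Tgfbr3 was 123 and 109, with 67.9% of the VSMC-like reads in 1 cell.

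The pericyte-like cells also carried EC genes. Their Pecam1 (CD31) level was 607 and their Cdh5 (VE-cadherin) level 249.6 on this scale, against 1152 and 818 in EC-like cells of the mouse. In the 27 pericyte-like cells that were not rich in other markers, Pecam1 was 351 and Cdh5 71.3, while Eng was 974, Tgfbr2 831.5 and Tgfb3 23.99. Tgfb2 in these cells was 37.1, with 50.3% of its reads in 1 cell. Eng in these 27 cells was thus above the 276 of ASC-like cells and below the 1918 of EC-like cells, with 28.8% of its reads in 1 cell. The 13 pericyte-like cells of mouse 2 had Eng at 1106, Tgfb3 at 0.376 (4 reads in 1 cell) and no Tgfb2 read, and no VSMC-like cell of mouse 2 was found. The mural-like sums of the mice thus differed in makeup, and the pericyte-like cells alone also had lower levels of Tgfb2 and Tgfb3 in mouse 2 than in mouse 1. The part of the makeup in the split of the sums was not tested.

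**Figure D2:**
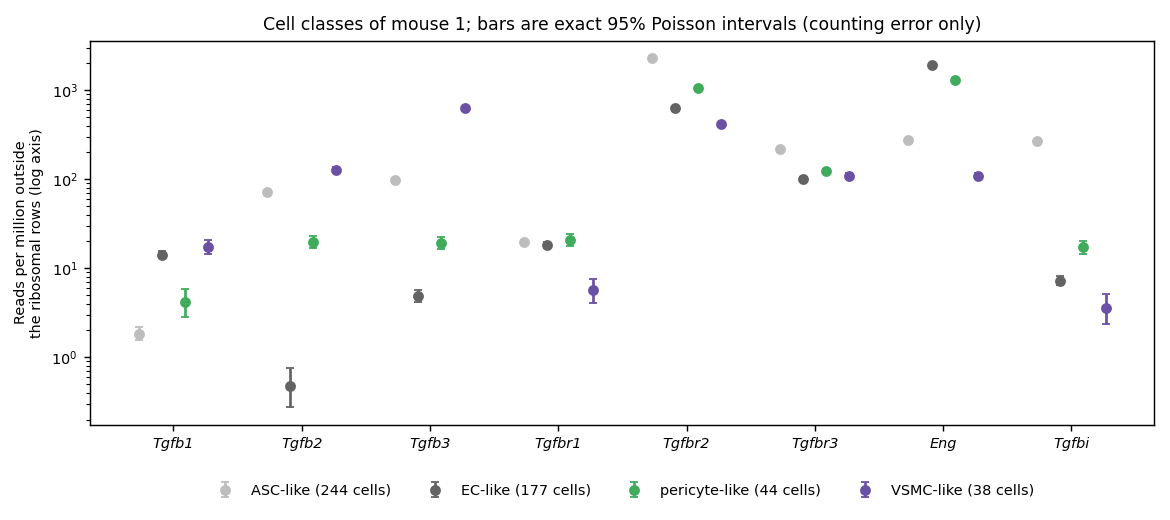
Levels of the 8 genes in 4 classes of mouse 1, as CPM of the reads outside the ribosomal rows (log axis), with exact 95% Poisson intervals that cover counting error only. Tgfb3 lies at 634 in VSMC-like against 19.3 in pericyte-like cells, and Eng at 109 against 1288.

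The ASC-like cells were divided into ASC1a-like (791 cells), ASC1b-like (698) and ASC2-like (761) by marker scores within each mouse, none of which used the 8 genes. Such a cut makes ranges along a score, not cell types, and 352 of 2250 cells (15.6%) lay less than 0.25 score units from the next range. Centring the scores within each mouse gave parts of similar size (84, 75 and 85 cells in mouse 1), whatever the mouse held. The study's own clusters differ, with no ASC1a cell from mouse 1 and hardly any ASC2 cell from mouse 4. Counts over mice below therefore describe these ranges and not the study's subtypes. The median cell of the ASC2-like range had 1709 CPM of the 4 summed ASC2 markers against 107 in ASC1a-like and 279.8 in ASC1b-like cells. The median ASC1b-like cell had 1032 CPM of the ASC1b markers against 430.0 in ASC1a-like and 185 in ASC2-like cells. The ASC1a markers had medians of 591 CPM in ASC1a-like, 259.6 in ASC1b-like and 63.8 in ASC2-like cells. The ranges thus share markers, most of all ASC1a-like and ASC1b-like cells. Tgfb1 had too few reads to be tested here, at 0 to 2.31 CPM over the subtype sums.

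Tgfbi marked the ASC1b-like range. It was 110 CPM at the lowest, 206 at the median and 357 at the highest of 7 mice in ASC1b-like cells. In ASC1a-like cells these values were 24.6, 64.4 and 151 CPM, and in ASC2-like cells 22.4, 39.6 and 132.5 CPM. The ranges over mice overlap, but ASC1b-like cells were higher than ASC1a-like cells in 7 of 7 mice (1.18- to 8.35-fold, median 4.28) and higher than ASC2-like cells in 7 of 7. ASC1b-like minus ASC1a-like was 1.78 ± 0.31 (adjusted p = 0.0119, edgeR), and Tgfbi was the 1 member called of 7 tested, where 0.162% of 11141 genes (18) were called. That call was lost without mouse 2, 4 or 6/7 (adjusted p = 0.0605, 0.0737 and 0.0720) and without the mouse block. ASC2-like minus ASC1b-like was -2.05 ± 0.31 (adjusted p = 0.000306), called in 19 of 19 alternatives and again the 1 member called of 7, with 3.27% of all genes called.

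Tgfbr2 and Tgfb2 had their highest medians in the ASC2-like range, without being called. Tgfbr2 was 708 CPM at the lowest, 1025 at the median and 2246 at the highest in ASC2-like cells. In ASC1a-like cells it was 313, 456.5 and 752.5, and in ASC1b-like cells 317, 478 and 846. ASC2-like cells were above ASC1a-like cells in 7 of 7 mice, by 1.78- to 3.08-fold. The difference was 1.21 ± 0.09 from ASC1a-like cells (adjusted p = 2.19e-07, fold 2.31) and 1.19 ± 0.09 from ASC1b-like cells (adjusted p = 4.73e-07, fold 2.29). Tgfb2 was 37.0 CPM at the median in ASC2-like (25.3 to 69.3), 24.2 in ASC1b-like (11.9 to 45.5) and 16.5 in ASC1a-like cells (4.54 to 32.0), and it was higher in ASC2-like than in ASC1a-like cells in 7 of 7 mice. That difference was 1.23 ± 0.24 (adjusted p = 0.00206, fold 2.35, under the fold required). From ASC1b-like cells it was 0.67 ± 0.24 (adjusted p = 0.0960, fold 1.59), which missed both limits, although it too was positive in 7 of 7 mice. Between ASC2-like and ASC1a-like cells 0 of 7 members were therefore called, where 3.43% of all genes were. Tgfbr2 and Tgfb2 had an unadjusted p under 0.05 in edgeR, and the likelihood ratio test and DESeq2 also called 0. Tgfbr3 was 1.13- to 2.10-fold higher in ASC2-like than in ASC1b-like cells in 7 of 7 mice (0.38 ± 0.11, adjusted p = 0.0320, fold 1.31), also under the fold required.

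**Figure D3:**
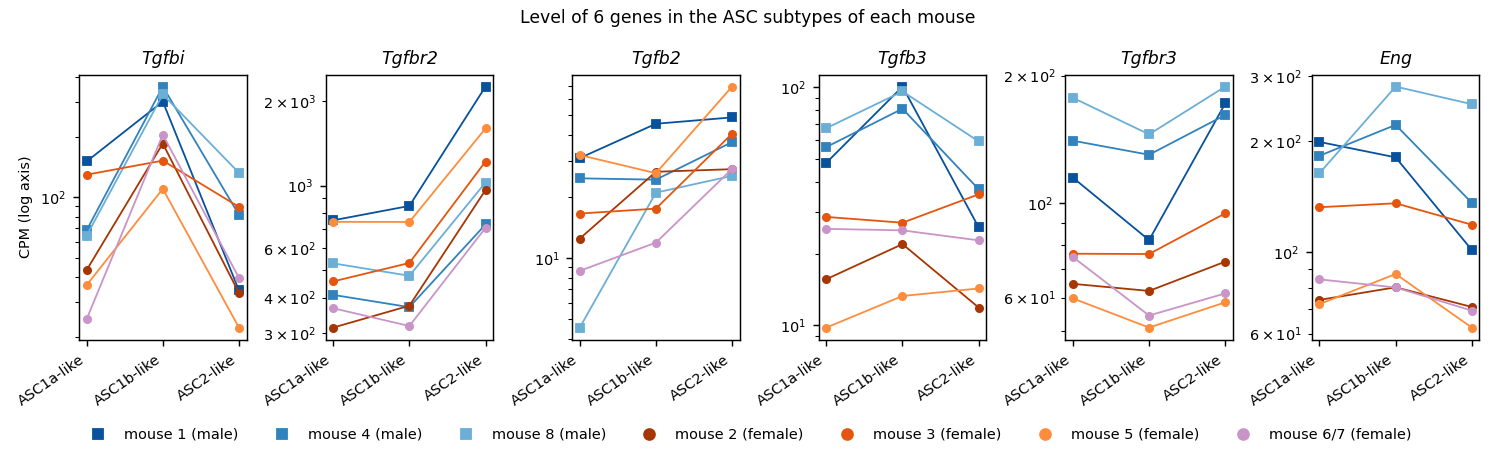
Level (CPM, log axis) of 6 of the genes in the 3 ASC ranges, with 1 line per mouse. The Tgfbi lines peak at ASC1b-like cells in all 7 mice, and the Tgfbr2 lines at ASC2-like cells in all 7.

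The DPP4 sorts of mouse 2 divided its ASC-like cells by a surface protein in place of a score. DPP4-positive ASC-like cells (379 cells) and DPP4-negative ones (368 cells) came from 1 plate each, so sort and plate cannot be told apart and no test was made. As CPM of the reads outside the ribosomal rows, Dpp4 was 296 in the positive and 2.34 in the negative sort. Tgfbr2 was 1681 against 544, and Tgfbi 84.9 against 233.8. Both had the direction of ASC2-like against ASC1b-like cells, whose sums include these cells. Tgfb1 was 0.813 against 2.15, from 149 and 457 reads, of which 43.6% and 35.7% stood in 1 cell. The others were closer, with Tgfb2 at 46.05 against 39.3, Tgfb3 at 26.5 against 36.65, Tgfbr3 at 139 against 123, Eng at 148 against 145 and Tgfbr1 at 14.4 against 14.9.

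By cell, almost every ASC-like cell had reads of Tgfbr2 and few had reads of Tgfb1. Cells were thinned to 100000 reads outside the ribosomal rows, which left out 30 ASC-like, 57 EC-like, 17 mural-like and 9 macrophage-like cells, and the share before thinning is given in parentheses. In ASC-like cells the share with a read was 99.0% (99.9%) for Tgfbr2, 87.0% (94.0%) for Tgfbr3, 73.0% (87.2%) for Eng and 53.8% (73.7%) for Tgfbi. It was 35.8% (50.7%) for Tgfb2, 36.4% (50.7%) for Tgfb3, 24.5% (36.3%) for Tgfbr1 and 3.47% (8%) for Tgfb1. In EC-like cells Eng was read in 99.2% (99.8%), Tgfbr2 in 68.3% (84.8%), Tgfb2 in 3.19% (6.08%) and Tgfb3 in 2.59% (5.37%). In macrophage-like cells the shares were 93.8% (96.4%) for Tgfbi, 39.1% (48.9%) for Tgfb1, 7.03% (11.7%) for Tgfbr3 and 1.56% (2.92%) for Tgfb2. In VSMC-like cells Tgfb3 was read in 86.1% (85.4%) and Tgfb2 in 61.1% (58.5%). Median depths outside the ribosomal rows before thinning were 378175 reads in ASC-like, 259599 in EC-like and 284400 in macrophage-like cells.

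Ligand reads of ASC-like cells nearly always stood beside Tgfbr2, because Tgfbr2 was read in 99.0% of the thinned cells. A read of at least 1 of the 3 ligands was found in 58.9% of thinned ASC-like cells (95% exact binomial interval 56.8% to 61.0%) and together with Tgfbr2 in 58.5%. The second share follows from the first and is no sign of a link between ligand and receptor. Tgfbr1 and Tgfbr2 were read together in 24.1%. In EC-like cells a ligand was read in 18.3% (15% to 22.0%) and in macrophage-like cells in 44.5% (35.7% to 53.6%), whereas all 36 thinned VSMC-like cells had one and 39.6% of 48 pericyte-like cells did. Both Tgfb2 and Tgfb3 were read in 14.7% of ASC-like cells, and in 0 of 502 EC-like cells, where the interval reaches 0.732%. Across the subtypes the share with a ligand was 51.3% in ASC1a-like, 58.9% in ASC1b-like and 66.8% in ASC2-like cells. These shares pool the cells of all mice and were not tested. The binomial intervals take cells as independent and do not cover the spread between mice. Before thinning, mouse 2 alone gave 747 of the 2250 ASC-like cells.

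Between the sexes, Tgfb3 was the member called in ASC-like cells. Scaled for this comparison, it was 54.6, 59.2 and 71.0 CPM in male mice 1, 4 and 8. In the female ids 2, 3, 5 and 6/7 it was 16.7, 30.3, 12.6 and 24.6 CPM. All male values lay above all female ones, as for 1919 of the 11817 genes tested in either direction. The means were 61.6 ± 8.46 (SD, n = 3) and 21.0 ± 7.89 CPM (SD, n = 4). Male minus female was 1.55 ± 0.32 (SE, adjusted p = 0.0386, edgeR, 2.93-fold), and Tgfb3 was 1 of 7 members tested that was called, where 2.24% of 11817 genes were. The call was lost with library totals in place of TMM factors (0.86, adjusted p = 0.261), a scaling that moved the median of all genes by -0.64. Relative to the median gene the Tgfb3 difference was 1.46 to 1.51 in the 4 scalings. It was also lost without mouse 2, 4, 5, 6/7 or 8 (adjusted p = 0.0760 to 0.112) and when genes with fewer reads were tested too. In the subtypes, the male and female values were 48.1 to 67.2 and 9.78 to 28.5 CPM in ASC1a-like cells. They were 81.1 to 100.4 and 13.3 to 26.9 CPM in ASC1b-like cells, and 25.8 to 59.1 and 11.9 to 35.5 CPM in ASC2-like cells. No test between sexes was run in these sums, and the genes without overlap were not counted there. The ranges were cut within each mouse and are not the study's subtypes.

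Tgfbr3, Eng and Tgfbi in ASC-like cells also had all male values above all female ones without being called. Tgfbr3 was 122, 143 and 167 CPM in male mice 1, 4 and 8 against 68.3, 82.2, 57.2 and 64.7 in female ids 2, 3, 5 and 6/7 (1.08 ± 0.25, adjusted p = 0.0513). Eng was 155, 182 and 220 CPM against 76.8, 128, 74.1 and 78.5 (1.05 ± 0.29, adjusted p = 0.0939). Tgfbi was 151, 177 and 158 CPM against 86.4, 123, 55.2 and 84.3 (0.89 ± 0.29, adjusted p = 0.157). Groups without overlap were common here, with 1919 of 11817 genes. Tgfbr2, Tgfb2 and Tgfbr1 overlapped between the sexes, with differences of 0.19 ± 0.41, 0.07 ± 0.40 and -0.36 ± 0.39. With library totals the first 2 of these turned to -0.53 and -0.49, and none of the 3 was called. Each plate held 1 sex and the sorts were not the same for both, so sex and plate cannot be told apart. The share of the ribosomal rows was 31.5% to 65.4% in the male and 29.6% to 53.2% in the female ASC-like sums.

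**Figure D4:**
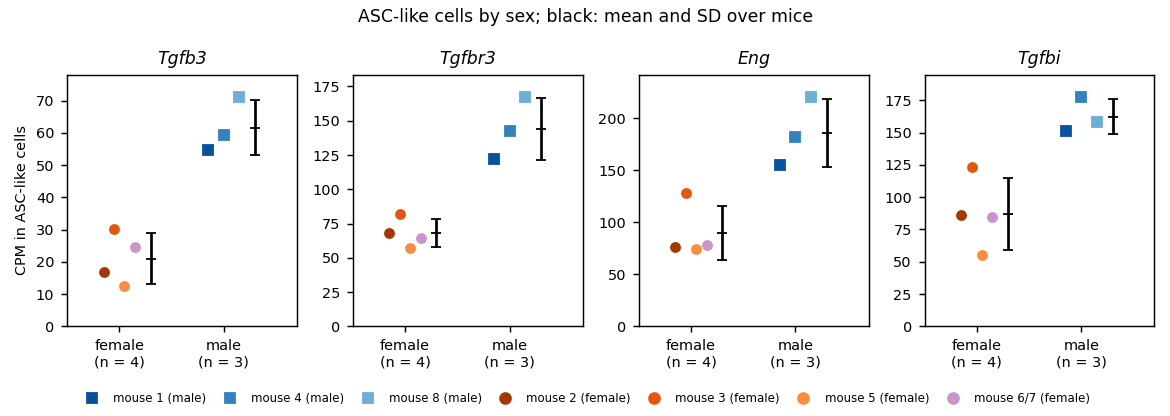
CPM in ASC-like cells of Tgfb3, Tgfbr3, Eng and Tgfbi by sex, with 1 point per mouse id and the mean and SD in black (4 female, 3 male). All male points lie above all female points in the 4 panels, and only Tgfb3 (61.6 against 21.0 CPM) was called with TMM factors.

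In EC-like cells 4 members had enough reads for the test between sexes (2 male, 3 female ids), and 0 were called, where 0.0494% of 8103 genes (4 genes) were. At an unadjusted p under 0.05 edgeR also gave 0 of the 4, and the likelihood ratio test and DESeq2 called 0. Eng was 1031 and 2580 CPM in male mice 1 and 8 and 846.7, 974 and 1079 CPM in female ids 2, 5 and 6/7, which overlap (0.90 ± 0.48, adjusted p = 0.661).

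Around the 8 genes, 39 other genes of the pathway were taken as 4 lists, of which 38 were in the table and 37 were tested between classes. In EC-like against ASC-like cells 3 were higher and 12 lower (21.8% of all genes were called in either direction). Of the 10 latency and activation genes tested, 7 were lower and 1 higher in EC-like cells, with a median of -3.79 against -0.19 for all genes. The lower ones were led by Fbn1 (fibrillin-1, a microfibril protein to which latent complexes attach, -10.09 ± 0.80, adjusted p = 3.58e-05), Ltbp2 (-6.75 ± 1.58, adjusted p = 0.0114) and Ltbp3 (-6.72 ± 1.17, adjusted p = 0.00230). Ltbp2 was scarce in ASC-like cells too, at 0.420 to 18.4 CPM, and reached at most 0.0954 CPM in EC-like cells. Whether Ltbp2 takes part in TGF-beta latency was not tested here. Ltbp1, the main latent TGF-beta binding protein of matrix, had 119 to 565.5 CPM in ASC-like and 2.92 to 5.45 CPM in EC-like cells. The 1 higher gene was Nrros, which anchors latent TGF-beta 1 on myeloid cells (6.23 ± 0.50, adjusted p = 3.54e-05). Of the 7 signal transduction genes only Smad3, a receptor-activated SMAD, was lower in EC-like cells (-3.44 ± 0.80, adjusted p = 0.0111). None of 10 inhibitors was called by edgeR, with 1 at an unadjusted p under 0.05.

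Of the 10 genes known as targets, 4 were lower and 2 higher in EC-like cells. Fn1 (fibronectin, -9.44 ± 0.44, adjusted p = 4.01e-06) and Postn (periostin, -7.47 ± 0.75) were among the lower ones. Id1, an inhibitor of differentiation also induced by bone morphogenetic proteins, was higher (4.25 ± 0.54, adjusted p = 0.000390), with 183 to 415 CPM in EC-like and 8.70 to 31.6 CPM in ASC-like cells. Cdkn1a, a cell cycle inhibitor that stress also induces, was higher too (1.89 ± 0.53, adjusted p = 0.0262).

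In macrophage-like against ASC-like cells 2 of the 37 were higher and 16 lower (15.1% of all genes were called), with a median of -3.70 against -0.19 for all genes. Nrros was 240.7 and 361.5 CPM in the macrophage-like sums and 0.206 to 1.96 CPM in ASC-like cells (8.82 ± 0.60, adjusted p = 9.88e-05). Lrrc32 (GARP), the other membrane carrier of latent TGF-beta, went the opposite way, with 0.201 and 0.601 CPM against 19.5 to 121 in ASC-like cells (-6.82 ± 1.04, adjusted p = 0.00256). Of the inhibitors, Smad7 (-6.76 ± 1.69, adjusted p = 0.0251), Smad6 (-6.52 ± 1.48, adjusted p = 0.0161) and Bambi (a decoy receptor, -3.79 ± 0.74, adjusted p = 0.00851) were lower and Tgif1 (a SMAD co-repressor, 2.08 ± 0.57, adjusted p = 0.0374) was higher. Of the targets 7 of 10 were lower and none higher, led by Postn (-8.43 ± 1.19) and Tgfb1i1 (-6.47 ± 0.55). Against EC-like cells 2 of the 37 were higher (Fn1, 4.49 ± 0.45, and Nrros, 2.59 ± 0.56) and 11 lower in macrophage-like cells (13.9% of all genes were called), among them Id1 (-8.46 ± 1.02) and Lrrc32 (-7.63 ± 1.06).

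In mural-like against ASC-like cells 2 of the 37 were higher (Nrros, 4.18 ± 0.57, and Id1, 2.94 ± 0.65) and 3 lower (Fbn1, -4.99 ± 0.97, Fn1, -4.45 ± 0.54, and Ltbp4, -2.74 ± 0.48), where 8.16% of all genes were called. Both higher genes were also higher in EC-like cells, whose markers the mural-like sums carried, and the part of EC RNA in them was not tested. Against EC-like cells 3 were higher in mural-like cells, Postn (8.21 ± 0.86), Fbn1 (5.10 ± 0.85) and Fn1 (4.98 ± 0.46), where 2.32% of all genes were called. In macrophage-like against mural-like cells 1 was higher (Nrros, 4.64 ± 0.75) and 12 lower, led by Postn (-9.17 ± 1.29), where 10% of all genes were called.

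**Figure D5:**
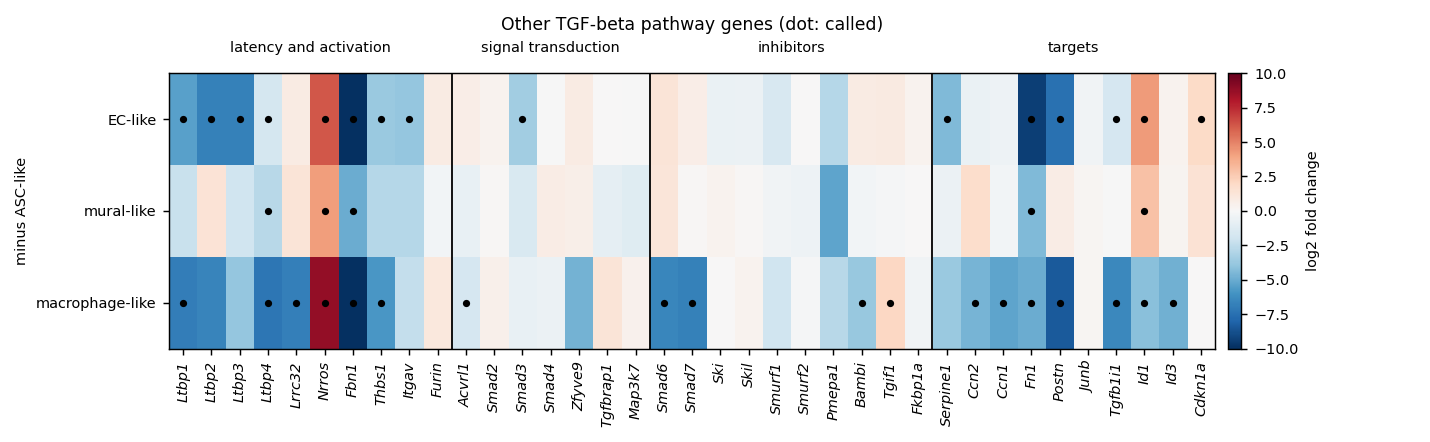
Log2 difference of each of the 37 pathway genes tested from ASC-like cells, in EC-like, mural-like and macrophage-like cells (rows), with the genes grouped by list, the colour scale ending at 10 in either direction and a dot where the gene was called. Blue cells dominate the latency and target lists in the macrophage-like row, where 5 and 7 genes were lower.

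Within the ASC-like cells Fbn1 and Fn1 were the pathway genes called in both comparisons of the ASC2-like range. Between ASC2-like and ASC1a-like cells 4 of 36 tested were called, where 3.43% of all genes were. The 3 higher ones were Fbn1 (2.20 ± 0.12, adjusted p = 1.33e-08), Fn1 (1.86 ± 0.16, adjusted p = 5.19e-07) and Postn (1.60 ± 0.25), each in 7 of 7 mice. Thbs1 (thrombospondin-1, an activator of latent TGF-beta) was lower in 7 of 7 (-1.62 ± 0.29, adjusted p = 0.00106). Between ASC2-like and ASC1b-like cells Fbn1 (2.08 ± 0.12) and Fn1 (1.64 ± 0.16) were higher and Ccn2 (connective tissue growth factor, -1.56 ± 0.47, adjusted p = 0.0461) lower, 3 of 36 where 3.27% of all genes were called. Between ASC1b-like and ASC1a-like cells edgeR called 0 of 36, with 7 at an unadjusted p under 0.05. Between the sexes it called 0 of 36 in ASC-like cells (8 at an unadjusted p under 0.05) and 0 of 24 in EC-like cells (1 at an unadjusted p under 0.05).

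Other genes followed the members across the 30 sums of mice and classes, described by Pearson's r of log2(CPM + 1) without a test, since the sums share mice and depth. Nearest to Tgfb1 were Cbr2 (r = 0.918), Chp2 and Laptm5, the last a lysosomal protein of leukocytes. Nearest to Tgfb2 were Adamtsl1 (0.951), Plce1 and Adgrd1, and nearest to Tgfb3 Susd2 (0.954), Mrgprf and Col18a1, a collagen. Eng had Prex2 (0.934), Papss2 and Epas1, a hypoxia-inducible transcription factor, and Tgfbr3 had Plpp3 (0.952), Cttn and Col4a1. Uap1l1 and Ugt1a7c were among the 3 nearest to Tgfbi, and Tgfbr2 was nearest to Opcml (0.849), Metrnl and Cd276. Tgfbr1 had no close neighbour, with Lix1 the nearest at 0.512.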

How the data were processed

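The authors aligned Smart-seq2 reads with STAR to mm10 plus ERCC spike-ins, quantified genes with Salmon and filtered cells before deposit. The versions of STAR and Salmon, and whether strand was used, are not given in the sources used here. The deposited table holds whole-number counts per gene and cell, not normalized. All 3261 cells were clustered, and the ERCC rows (1.98% of reads) were left out. Only cells of the 4 classes (3047) could enter the sums and cell shares. The clusters that stayed unnamed, of 123, 50 and 19 cells, and 22 lymphatic EC-like cells entered neither. In the cluster of 123 cells the blood EC markers were the highest. Doublets were not called, since each well was sorted, and wells with more than 1 cell were not searched for. Cells were clustered in Seurat 5.3.0 on 2988 variable genes, without the 8 genes and the other pathway genes, into 18 clusters. Clusters were named after the class with the highest markers, given 3 or more markers with reads in 25% of their cells, and 3 clusters with adipocyte genes leading or high mitochondrial shares stayed unnamed, by limits chosen after the clusters were seen. ASC ranges were cut from marker z-scores within each mouse.

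Counts were summed per mouse and class (at least 10 cells). Genes had to exceed a count of 600 in 2 sums or more, and the test was the two-sided quasi-likelihood test of edgeR 4.0.16 (TMM, mouse as a block for classes and ranges, no block for sex), which was first tested on simulated data. The 4 classes shared 1 fit and 1 estimate of the spread, because the macrophage-like and mural-like sums were few. The same mice give the sums of all classes, and comparisons against ASC-like cells share those sums. For classes and ranges the block takes out differences between mice. The p-values for EC-like against ASC-like cells and for the ranges thus measure how a difference varies from mouse to mouse. Macrophage-like and mural-like cells had 2 sums each. Their p-values rest on the spread shared with the other classes and do not measure how these 2 classes vary between mice. For sex they measure the spread between mouse ids. The authors' limits for a call, 0.05 and 2.6-fold, were kept. Alternatives were the likelihood ratio test, DESeq2 1.42.0, other scalings, filters, blocks, cell minimums, cell sets and class names, and leaving out each mouse. Totals without the ribosomal rows were added after the data were seen. The 8 genes, the pathway lists and the markers were chosen with earlier results of these data known. All 8 genes were named, and of each pathway list up to 4 called genes of the largest fold per direction. Promoters were read from a RefSeq table of GRCm38.p6. R 4.3.3, Python 3.11.15, numpy 2.4.6, pandas 2.3.3, scipy 1.17.1 and matplotlib 3.10.9 were used. Some genes of the lists are not reported here.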

Additional observations from a re-analysis of the deposited data

Results flagged for a closer look

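In 48 groups of 4 to 7 mice, 6 had a mouse set apart from the rest by a gap test at which chance flags about 1 group in 20. Eng in EC-like cells was 2375 CPM in mouse 8 and 789 to 1032 in the other 4. Eng in ASC2-like cells was also highest in mouse 8, at 252 CPM against 62.3 to 136. Eng in female ASC-like cells was 128 CPM in mouse 3 and 74.1 to 78.5 in the others. Tgfb2 in EC-like cells was 0.842 CPM in mouse 2 and 0.0432 to 0.261 in the others, and 77.2% of all EC-like Tgfb2 reads stood in 1 cell. Tgfb1 in ASC1b-like cells was 1.14 CPM in mouse 2 and 0.0863 to 0.306 in the others, and 47.4% of its reads stood in 1 cell. Tgfbr1 in ASC2-like cells was 19.8 CPM in mouse 1 and 6.13 to 11.2 in the others.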

How the results depend on the processing

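With at least 20 cells per sum, without cells rich in other markers or with classes named cell by cell, 0 members in place of 3 were called between mural-like and ASC-like cells. Between mural-like and EC-like cells, in place of 0, 1 was called by the likelihood ratio test and with at least 20 cells, and 2 by DESeq2, without the mouse block and without cells rich in other markers. Without the block 5 in place of 3 were called between macrophage-like and EC-like and 0 in place of 1 between ASC1b-like and ASC1a-like cells. Classes named cell by cell gave 2 in place of 4 between macrophage-like and mural-like cells, with Tgfb1, Eng and Tgfbi lost and Tgfb2 added. Between the sexes of ASC-like cells 0 in place of 1 were called with library totals, with totals without the ribosomal rows, with both lower filters and with classes named cell by cell.

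Leaving out 1 mouse gave 4 to 6 called members between EC-like and ASC-like cells, 0 to 3 between mural-like and ASC-like, 1 to 3 between macrophage-like and ASC-like, 0 to 1 between mural-like and EC-like, 2 to 3 between macrophage-like and EC-like and 1 to 4 between macrophage-like and mural-like cells. It gave 0 to 1 between ASC1b-like and ASC1a-like cells and 0 to 1 between the sexes in ASC-like and in EC-like cells, where Eng was called without mouse 1 (1.41, adjusted p = 0.0388, edgeR). Where this leaves a class with 1 sum, that sum is assumed to vary like the other classes. Between mural-like and EC-like cells, leaving out 1 mouse gave -0.38 to 6.99 for Tgfb3 and -9.63 to 7.02 for Tgfb2, both negative only without mouse 1. Between macrophage-like and mural-like cells it gave -9.24 to 6.22 for Tgfb2, positive only without mouse 1. The cause of these changes was not tested. With 2 mural-like and 2 macrophage-like sums, their comparisons rest on single mice. Tgfb1 and Tgfbr1 are limited by reads.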
